A study of Mus musculus with 6 samples.

Results

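The genes described here are 38 proliferation and cell cycle genes, fixed by name, of the 32719 genes counted in 6 RNA libraries from mouse vagal ganglia. All 38 symbols were found on exactly 1 row of the count files. By role they comprise 5 D-type cyclins and their kinases, and 4 genes of the step from G1 into S phase. A further 10 serve DNA replication, 16 serve G2 and mitosis, and 3 encode inhibitors or the retinoblastoma protein. The libraries came from jugular-nodose ganglia, the ganglia of the sensory neurons of the vagus nerve, of wild-type C57BL/6J male mice. By their titles 3 libraries were treated and 3 were controls. Per the labels' protocol, subcutaneous osmotic pumps delivered for 2 weeks either S961, a peptide that blocks the insulin receptor, at 10 nmol per week in PBS, or PBS alone. The treatment label names S961 for all 6 libraries, so that the controls received PBS rests on titles and protocol. Neither the ages nor whether a library is 1 animal or a pool is stated, so p-values measure the spread between these libraries. The source label reads spinal cord, whereas the nociceptor sodium channel Scn10a had 1220, 867 and 1000.3 CPM in treated and 1092, 1050 and 1048 CPM in control libraries. CPM are counts scaled to the same effective library size by the TMM method.

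A dividing cell passes in order through G1, S phase, G2 and mitosis, each step driven by cyclin-dependent kinases (CDKs) and their cyclins. The D cyclins with Cdk4 and Cdk6 phosphorylate Rb1, which releases E2F factors that switch on replication genes. Mitotic genes follow, through a complex that binds a promoter element named the cell cycle homology region and a factor that binds CCAAT boxes. Neurons of an adult ganglion have left the cycle for good. Satellite glia, Schwann cells, endothelial cells, fibroblasts and resident macrophages around them can divide, and injury of a peripheral nerve is a known trigger. D cyclins, Cdk4, Cdkn1b and Rb1 are made in resting cells as well, whereas Mki67, Top2a and the mitotic cyclins are markers of cells in cycle.

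The roles differ in promoter sequence, a property that the choice of genes did not use. RefSeq promoter windows of the GRCm38.p6 build, from 250 bases before to 50 after the start, were found for 31 of the 38 genes, in 34 windows. The windows were searched on both strands for the CCAAT box and for the cell cycle homology region, spelled TTTGAA in its usual form and otherwise TTCGAA. E2F sequences were spelled TTTCCCG in one form and TTTCGCG in another, and further forms were TTTGCCG as well as the related TTTGGCG. Matches of E2F sequences can overlap each other. A cell cycle homology region stood in 11 of 14 windows of mitotic genes, against 19.2% of all 32851 windows in the table. CCAAT boxes stood in 13 of those 14 and in 9 of 10 windows of replication genes, against 37.4% of all windows. E2F sequences stood in 4 of 10 replication windows, against 6.7% of all windows. Ccnd1 and Ccnd2 had no window in the table. The 4 windows of Ccnd3, Cdk4 and Cdk6 held no homology region and no E2F sequence, and 1 of them held a CCAAT box. A match of letters is a description of the sequence only. The 160 bases before the start are shown for 4 mitotic genes that carry the homology region, for 1 replication gene with E2F sequences and for Cdk4, which has no match to any of the motifs. Capitals mark each match on either strand.
Mki67 (chr7:135716380-135716539, minus strand): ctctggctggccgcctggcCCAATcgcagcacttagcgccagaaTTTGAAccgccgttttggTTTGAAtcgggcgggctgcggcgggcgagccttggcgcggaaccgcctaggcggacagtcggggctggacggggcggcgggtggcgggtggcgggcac
Top2a (chr11:99024190-99024349, minus strand): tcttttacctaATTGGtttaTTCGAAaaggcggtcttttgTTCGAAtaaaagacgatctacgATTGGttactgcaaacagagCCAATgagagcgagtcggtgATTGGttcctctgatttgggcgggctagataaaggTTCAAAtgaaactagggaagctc
Cdk1 (chr10:69352913-69353072, minus strand): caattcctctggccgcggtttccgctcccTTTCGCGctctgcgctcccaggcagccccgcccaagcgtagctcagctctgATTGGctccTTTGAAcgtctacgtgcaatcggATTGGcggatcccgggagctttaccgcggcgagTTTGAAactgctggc
Ube2c (chr2:164769769-164769928, plus strand): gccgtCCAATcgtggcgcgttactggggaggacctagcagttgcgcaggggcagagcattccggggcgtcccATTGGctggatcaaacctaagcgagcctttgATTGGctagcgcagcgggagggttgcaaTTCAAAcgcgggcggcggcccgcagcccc
Mcm6 (chr1:128359706-128359865, minus strand): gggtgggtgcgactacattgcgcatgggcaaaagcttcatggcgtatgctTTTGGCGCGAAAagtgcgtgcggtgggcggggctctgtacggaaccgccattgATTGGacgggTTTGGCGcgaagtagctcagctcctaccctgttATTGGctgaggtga
Cdk4 (chr10:127063375-127063534, plus strand): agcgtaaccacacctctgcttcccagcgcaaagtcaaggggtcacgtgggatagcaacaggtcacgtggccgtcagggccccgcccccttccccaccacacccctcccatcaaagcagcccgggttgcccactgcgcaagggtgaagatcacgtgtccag

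**Figure D1:**
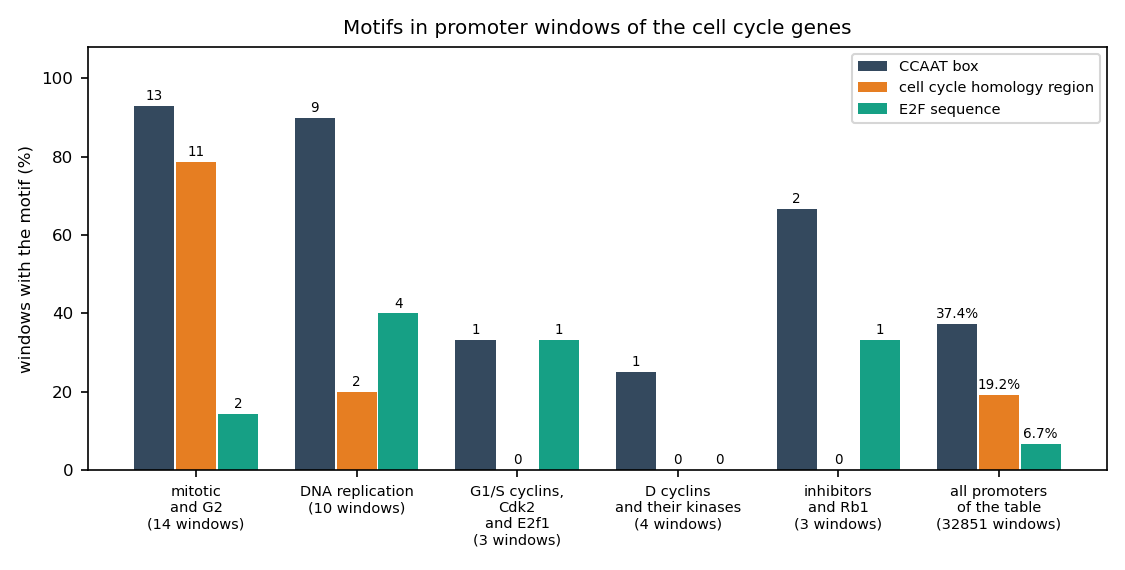
Share of promoter windows (y axis, percent) that hold each of 3 motifs on either strand, by role of the gene and over all promoters of the RefSeq table. Numbers above the bars are windows with the motif, or the percent for all promoters. The mitotic genes stand out by the cell cycle homology region (11 of 14 windows), and CCAAT boxes are frequent in both mitotic and replication genes.

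The treated libraries held 12898607 to 33522486 gene counts and the controls 14844384 to 25749857. Treated replicate 3 was the smallest library and stood apart, with correlations of 0.920 to 0.944 with the others across 12197 genes, against 0.968 to 0.989 among those 5. Genes are not independent replicates. Its marker levels stood apart too. Macrophage markers summed to 42.4, 76.0 and 268.5 CPM in treated replicates 1, 2 and 3, against 46.6, 34.8 and 79.6 CPM in control replicates 1, 2 and 3, with all 8 of 8 markers highest in treated replicate 3. Fibroblast markers summed to 475.7, 738.9 and 2138.0 CPM in treated and to 887.3, 657.5 and 1136.0 CPM in control libraries. Fat cell markers summed to 1.73, 44.7 and 422.1 CPM in treated and to 28.0, 1.81 and 13.2 CPM in control libraries, where Lep had 0 counts in 1 library. Markers of neutrophils and their precursors summed to 1.58, 13.5 and 48.7 CPM in treated and to 5.39, 1.00 and 12.4 CPM in control libraries, and the neutrophil marker Ly6g was at 0 counts in 2 treated and 2 control libraries. Sums were highest in treated replicate 3 for further cell types as well. Endothelial markers summed to 68.1, 85.6 and 125.1 CPM in treated and to 90.2, 79.7 and 77.8 CPM in control libraries, and pericyte markers to 60.9, 72.7 and 114.9 CPM in treated and to 51.8, 66.7 and 54.2 CPM in control libraries. Satellite glia markers summed to 2789, 3277 and 3628 CPM in treated and to 2409, 3311 and 2631 CPM in control libraries, and Schwann cell markers to 1348, 2044 and 2101 CPM in treated and to 1085, 1747 and 1133 CPM in control libraries. By single marker, treated replicate 3 was highest for 4 of 5 endothelial, 4 of 7 satellite glia and 3 of 7 Schwann cell markers. Summed neuron markers were lowest there, at 8719, 8175 and 6436 CPM in treated and 8753, 8552 and 7991 CPM in control libraries. Of the 7 neuron markers 1, Rbfox3, was highest in treated replicate 3, at 131.0 CPM. Red blood cell and skeletal muscle markers were not highest in treated replicate 3. Red blood cell markers summed to 10.1, 7.80 and 23.3 CPM in treated and to 17.1, 23.3 and 52.4 CPM in control libraries. Skeletal muscle markers summed to 17.6, 3.69 and 15.8 CPM in treated and to 10.3, 76.2 and 114.7 CPM in control libraries. Small RNA and haemoglobin genes took 11.3% of the counts of treated replicate 3, against 4.42% to 7.05% in the other libraries. RNA integrity numbers ran from 6.6 to 9.1 over the study, per the labels, and are not given by library. The part of these cells or of RNA quality in any difference below was not tested. In whole ganglia, fewer cells of a type and less RNA per cell cannot be told apart.

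None of the 38 genes passed the test between treated and control ganglia. Of the 38, 33 passed the low-count filter, and 0 of these passed an adjusted p of 0.05 in edgeR's quasi-likelihood test, as did 0.0% of all 16019 genes tested. At an unadjusted p under 0.05 there were also 0 of 33, against 6.67% of all genes (4.0% higher and 2.67% lower in treated libraries). DESeq2 called 0 of the 33, against 0.567% of the genes it could adjust. The log2 fold change (treated over control) was positive for 26 and negative for 7 of the 33, or 78.8% positive, against 52.8% of all genes tested. Its median was 0.22, against 0.02 over all genes. Without treated replicate 3 the median of the 33 was 0.11, against 0.0032 over all genes. In that setting 24 of the 33 were positive and 9 negative. The 38 genes were chosen with earlier results of these data known. Among 107 other cell cycle genes tested, described below, 54.2% were positive with all libraries. The groups did not overlap for 3 of the 33 (Cenpe, Mcm4 and Pcna), against 14.7% of all genes. In all 3 the treated libraries were the higher ones, which held for 7.07% of all genes, while 7.63% of all genes had every treated library lower. The smallest two-sided exact permutation p for 3 libraries against 3 is 0.1.

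**Figure D2:**
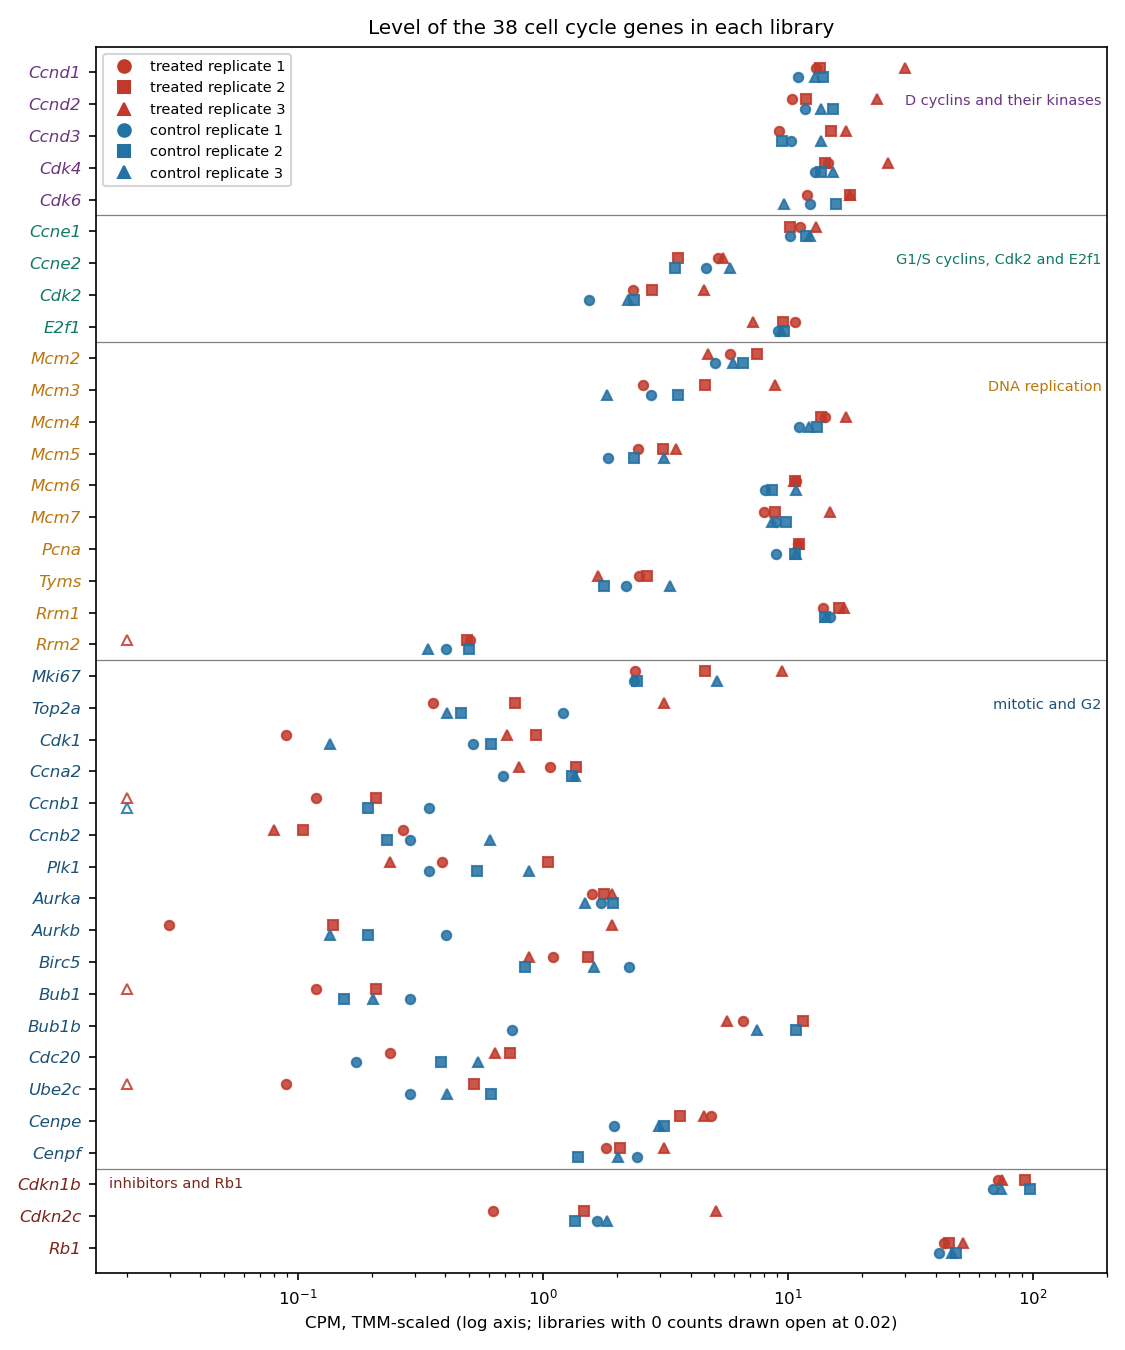
Level of each of the 38 genes in each library, in TMM-scaled CPM on a log axis, grouped by role. Red symbols are treated and blue symbols control libraries, and circle, square and triangle are replicates 1, 2 and 3. Cdkn1b and Rb1 lie above 40 CPM in every library, most mitotic genes lie near or below 1 CPM, and red triangles (treated replicate 3) are the rightmost symbol in many rows.

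The counts of the 38 genes were unevenly spread over the roles. The inhibitors and Rb1 took 38.3% of the counts of the 38 genes in treated and 41.6% in control libraries, and the 16 mitotic genes took 8.08% and 7.17%. Many mitotic genes were at the edge of detection. Of the 16 mitotic genes 6 stayed under 1 CPM in every library (Cdk1, Ccnb1, Ccnb2, Bub1, Cdc20 and Ube2c), as did Rrm2 among the replication genes. The 5 genes that did not pass the filter on low counts were all mitotic. In treated replicate 3 Rrm2, Ccnb1, Bub1 and Ube2c had 0 counts, which at its depth allows up to 0.239 CPM. In control replicate 3 Ccnb1 had 0 counts, which allows up to 0.203 CPM. These limits are 3 counts per library and cover counting error only.

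D-type cyclins and their kinases start the passage through G1. The log2 fold changes of all 5 genes were positive and 0 were called. Their median was 0.34, and 0.07 with treated replicate 3 left out. Ccnd1, which encodes cyclin D1, had 13.0, 13.5 and 29.9 CPM in treated replicates 1, 2 and 3, against 11.0, 13.9 and 12.9 CPM in control replicates 1, 2 and 3. Treated replicate 3 alone was high and the other treated libraries lay within the controls. Between groups the log2 fold change of Ccnd1 was 0.56 ± 0.33 (SE; edgeR adjusted p = 0.746), and it was 0.07 without treated replicate 3. Cdk4, the main partner kinase, had 14.5, 14.1 and 25.6 CPM in treated and 12.9, 13.6 and 15.2 CPM in control libraries. For Cdk4 the log2 fold change was 0.37 ± 0.24 (SE; edgeR adjusted p = 0.754) and 0.04 without treated replicate 3. Ccnd2, for cyclin D2, had 10.4, 11.9 and 23.1 CPM in treated and 11.7, 15.2 and 13.6 CPM in control libraries. Here the sign turned, at 0.15 ± 0.30 (SE) with all libraries and -0.28 without treated replicate 3. Ccnd3, for cyclin D3, had 9.17, 14.9 and 17.2 CPM in treated and 10.3, 9.42 and 13.7 CPM in control libraries. Cdk6, the second partner kinase, had 11.9, 17.9 and 17.8 CPM in treated and 12.3, 15.6 and 9.66 CPM in control libraries. For Ccnd3 and Cdk6 the groups overlapped as well. The library with the highest level of 4 of these 5 genes was treated replicate 3. Marker sums of the non-neuronal cells above were also highest there, except those of red blood cells and skeletal muscle.

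Per kilobase of annotated exon, these genes ranked alike in both groups. Cdk4 was highest, at 5.57 ± 2.01 CPM per kb in treated and 4.28 ± 0.363 CPM per kb in control libraries (SD, n = 3 each). Ccnd1 followed, ranging over the 6 libraries between 2.34 and 6.35 CPM per kb, with 2.68 ± 0.311 CPM per kb in control libraries. Ccnd2 ranged between 1.10 and 2.45 CPM per kb, with 1.43 ± 0.186 CPM per kb in control libraries. Ccnd3 stood at 1.57 ± 0.471 CPM per kb in treated and 1.27 ± 0.254 CPM per kb in control libraries, so it and Ccnd2 did not differ beyond their spread. Cdk6 had the lowest mean, at 1.14 ± 0.245 CPM per kb in treated and 0.895 ± 0.213 CPM per kb in control libraries, and its mean ± SD overlapped that of Ccnd3 in both groups. Part of the exon length of some genes is shared with a gene on the other strand, namely 23.4% for Ccnd1 and 19.7% for Cdk4. The strand setting of the counting is unknown, so reads of such pairs cannot be told apart. The same holds for 22.8% of the exon length of Ube2c, 17.4% of Ccne2 and 12.5% of Ccna2. It also holds for Rb1, which shares 8.11% with Rcbtb2 and 6.78% with Lpar6. Mcm7 likewise shares 7.25% with Ap4m1 and 1.45% with Cops6. On the same strand, Top2a shares 1.35% of its exon length with the small nucleolar RNA gene Gm23451. Mcm7 also shares 1.90% with Mir25 and 1.99% with Mir93 on its own strand. The part of such reads in the counts was not tested.

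Cyclin E with Cdk2 drives entry into S phase, and E2f1 is the E2F factor that Rb1 holds back. Ccne1, for cyclin E1, had 11.2, 10.2 and 13.0 CPM in treated and 10.1, 11.8 and 12.2 CPM in control libraries, and its log2 fold change was 0.00077 ± 0.16 (SE; edgeR adjusted p = 0.998). Ccne2, for cyclin E2, had 5.18, 3.55 and 5.41 CPM in treated and 4.64, 3.46 and 5.81 CPM in control libraries. The groups overlapped for both cyclin E genes. E2f1 had 10.7, 9.51 and 7.16 CPM in treated and 9.06, 9.66 and 9.39 CPM in control libraries, at -0.03 ± 0.19. Its lowest value was in treated replicate 3, where the D cyclins were high. Cdk2 was the 1 gene of the 4 with a larger value, at 0.64 ± 0.37 (SE; edgeR adjusted p = 0.745), and 0.32 without treated replicate 3. It had 2.32, 2.79 and 4.53 CPM in treated and 1.55, 2.35 and 2.23 CPM in control libraries, so treated replicate 1 lay just below control replicate 2.

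The 10 replication genes had a median log2 fold change of 0.16, with 8 positive and 2 negative values, and 0 were called. Mcm2 to Mcm7 encode the 6 subunits of the MCM helicase, which unwinds DNA at the fork. Mcm4 was 1 of the 3 genes whose groups did not overlap, with 14.1, 13.6 and 17.2 CPM in treated and 11.1, 13.2 and 12.2 CPM in control libraries. Mcm4 had a log2 fold change of 0.30 ± 0.15 (SE; edgeR adjusted p = 0.742), and 0.19 without treated replicate 3. Mcm3 had 2.56, 4.60 and 8.83 CPM in treated and 2.75, 3.54 and 1.82 CPM in control libraries, and treated replicate 1 lay among the controls. Its log2 fold change of 0.95 ± 0.48 (SE; edgeR adjusted p = 0.742) was 0.38 without treated replicate 3. Mcm7 had 7.97, 8.81 and 14.9 CPM in treated and 8.94, 9.85 and 8.58 CPM in control libraries, and its sign turned from 0.20 ± 0.25 (SE) to -0.12 without treated replicate 3. Mcm6 was even among treated libraries, with 10.7, 10.7 and 10.6 CPM against 8.08, 8.62 and 10.7 CPM in controls. Mcm2 had 5.77, 7.49 and 4.69 CPM in treated and 5.04, 6.54 and 5.95 CPM in control libraries. Mcm5 had 2.44, 3.10 and 3.50 CPM in treated and 1.83, 2.35 and 3.11 CPM in control libraries. The groups overlapped for Mcm2, Mcm5 and Mcm6.

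The 6 MCM subunits work in equal number, yet their RNA levels per kilobase differed. Mcm4 was highest, at 4.17 ± 0.542 CPM per kb in treated and 3.38 ± 0.284 CPM per kb in control libraries (SD, n = 3 each). Mcm5 had the lowest mean, at 0.755 ± 0.134 CPM per kb in treated and 0.609 ± 0.161 CPM per kb in control libraries. The ratio of these means was 5.52 in treated and 5.56 in control libraries. Mcm7 and Mcm6 did not differ beyond their spread, with 2.38 ± 0.851 and 2.28 ± 0.0175 CPM per kb in treated and 2.06 ± 0.147 and 1.96 ± 0.302 CPM per kb in control libraries. Mcm2 and Mcm3 followed, with 0.860 ± 0.203 and 1.42 ± 0.852 CPM per kb in treated and 0.840 ± 0.108 and 0.721 ± 0.229 CPM per kb in control libraries. Their mean ± SD overlapped that of Mcm5 in both groups, so which of these genes is lowest is not settled. Lengths count every annotated exon, so a gene with long exons that are rarely used appears lower than it is.

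Of the other replication genes, Pcna encodes the clamp at the fork and the rest make DNA precursors. Pcna, the sliding clamp of DNA polymerases, had 11.0, 11.1 and 11.0 CPM in treated and 8.88, 10.7 and 10.8 CPM in control libraries. Its groups did not overlap, by a small margin, and the log2 fold change was 0.12 ± 0.15 (SE; edgeR adjusted p = 0.854), with 0.0342 to 0.17 when 1 library was left out. Rrm1 and Rrm2 encode the large and the small subunit of ribonucleotide reductase, which makes deoxynucleotides. Rrm1 had 13.9, 16.1 and 16.9 CPM in treated and 14.8, 14.2 and 14.3 CPM in control libraries. Rrm2, which is made mainly in S phase, had 17, 14 and 0 counts in treated and 7, 13 and 5 counts in control libraries. Tyms, thymidylate synthase, had 2.47, 2.65 and 1.67 CPM in treated and 2.18, 1.77 and 3.31 CPM in control libraries. Rrm1, Rrm2 and Tyms overlapped between groups.

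**Figure D3:**
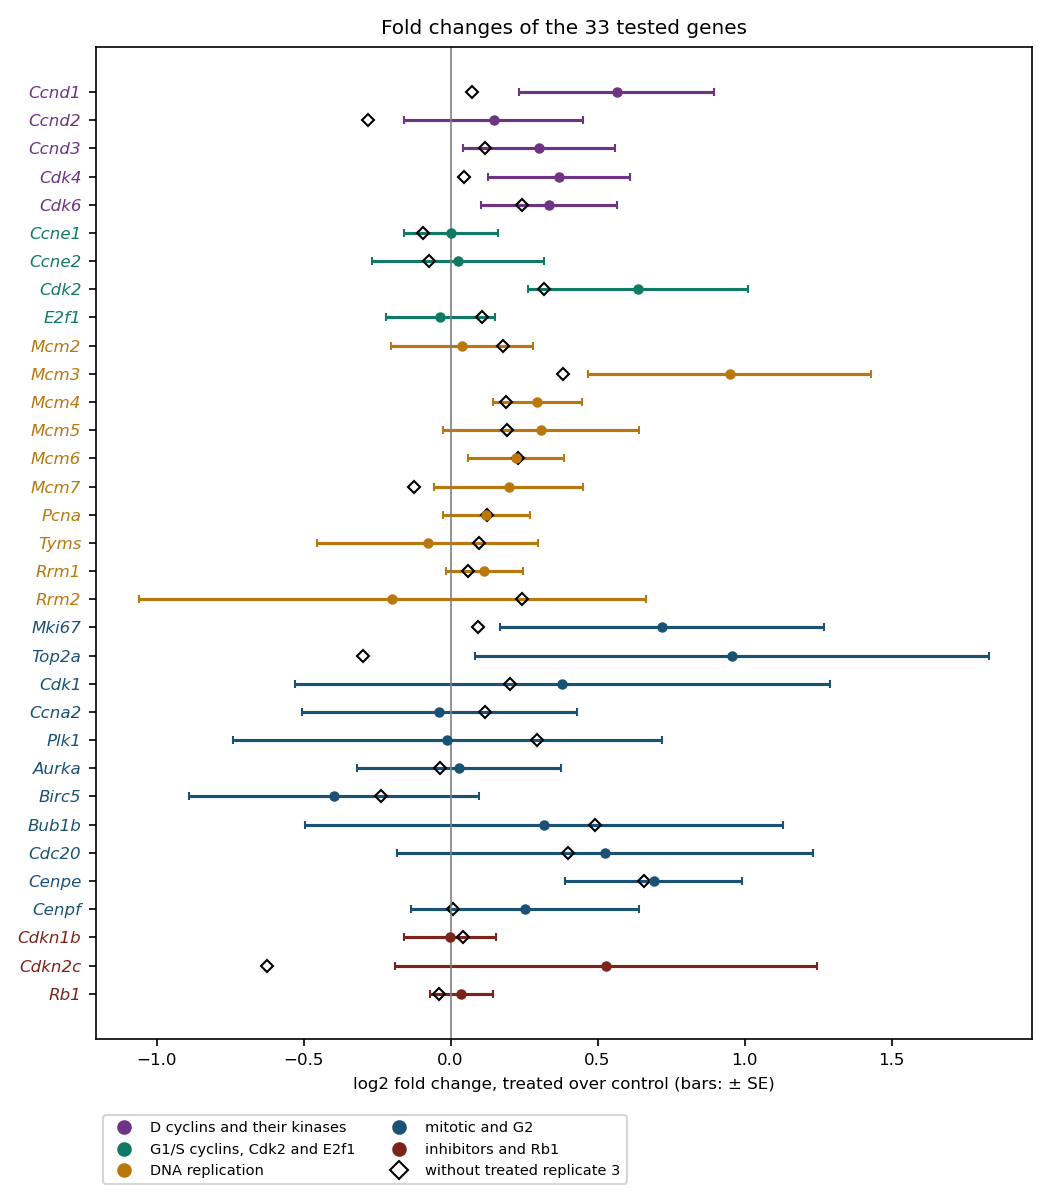
Log2 fold change of treated over control (x axis) with its SE for the 33 genes tested, coloured by role, and the value without treated replicate 3 (open diamonds). With all libraries every value lies between -0.40 and 0.96 and none passed. The diamonds of Ccnd1, Ccnd2, Cdk4, Mki67, Top2a and Cdkn2c lie near or below 0.

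Of the 16 genes of G2 and mitosis 11 were tested, and 0 were called, with 8 positive and 3 negative log2 fold changes. Their median was 0.32, and leaving out 1 library moved it between 0.0047 (without treated replicate 2) and 0.52 (without control replicate 2). Mki67, the Ki-67 protein of the surface of mitotic chromosomes and the usual marker of cells in cycle, had 2.38, 4.60 and 9.47 CPM in treated and 2.35, 2.42 and 5.14 CPM in control libraries. Replicate 3 was the highest of each group, and treated replicate 1 lay among the controls. Mki67 had a log2 fold change of 0.72 ± 0.55 (SE; edgeR adjusted p = 0.778), and 0.09 without treated replicate 3. Top2a, the topoisomerase that untangles chromosomes, had 12, 22 and 39 counts in treated and 21, 12 and 6 counts in control libraries, or 0.357, 0.766 and 3.10 CPM against 1.20, 0.462 and 0.405 CPM. Top2a had a log2 fold change of 0.96 ± 0.87 (SE; edgeR adjusted p = 0.801), which was -0.30 without treated replicate 3. Aurkb, a kinase of the chromosomal passenger complex, had 1, 4 and 24 counts in treated and 7, 5 and 2 counts in control libraries, and was not tested. The summed macrophage markers were also highest in treated replicate 3 and, among controls, in control replicate 3. The same held for the sums of fibroblast markers and of markers of neutrophils and their precursors. It held as well for lymphocyte markers, at low sums of 0.655, 0.975 and 2.47 CPM in treated and 0.631, 0.808 and 1.49 CPM in control libraries. The part of any of these cells in the value of Mki67 was not tested.

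Not every mitotic gene was high in treated replicate 3. Birc5, which encodes survivin of the same passenger complex as Aurkb, had 37, 44 and 11 counts in treated and 39, 22 and 24 counts in control libraries. Its log2 fold change was -0.40 ± 0.49 (SE; edgeR adjusted p = 0.860), and leaving out 1 library moved it between -0.71 and -0.05. Plk1, a kinase of mitotic entry, had 13, 30 and 3 counts in treated and 6, 14 and 13 counts in control libraries. Ccna2, for cyclin A2 of S phase and G2, had 36, 39 and 10 counts in treated and 12, 34 and 20 counts in control libraries. In CPM, treated replicate 3 was the lowest library for Plk1 and the second lowest for Birc5 and Ccna2. Cdk1, the mitotic kinase itself, had 3, 27 and 9 counts in treated and 9, 16 and 2 counts in control libraries, or 0.0893, 0.941 and 0.716 CPM in treated and 0.516, 0.615 and 0.135 CPM in control libraries. Here treated replicate 3 was the second highest library. The cyclin B partners of Cdk1 had fewer counts and were not tested. Ccnb1, for cyclin B1, had 4, 6 and 0 counts in treated and 6, 5 and 0 counts in control libraries. Ccnb2, for cyclin B2, had 9, 3 and 1 counts in treated and 5, 6 and 9 counts in control libraries. At such counts a difference of a few reads decides the order of libraries.

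Ube2c and Cdc20 act with the anaphase-promoting complex, which destroys the mitotic cyclins. Ube2c had 3, 15 and 0 counts in treated and 5, 16 and 6 counts in control libraries. Cdc20 had 8, 21 and 8 counts in treated and 3, 10 and 8 counts in control libraries. Aurka, a kinase of the spindle poles, was even, with 1.58, 1.78 and 1.91 CPM in treated and 1.72, 1.92 and 1.49 CPM in control libraries, and a log2 fold change of 0.03 ± 0.35 (SE). The groups overlapped for all 3 of these genes.

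Cenpe had the smallest p of the 33 genes. It encodes a kinesin that carries chromosomes along spindle microtubules, and had 163, 104 and 57 counts in treated and 34, 81 and 44 counts in control libraries. In CPM these were 4.85, 3.62 and 4.53 in treated and 1.95, 3.12 and 2.97 in control libraries, without overlap. Cenpe had a log2 fold change of 0.69 ± 0.30 (SE), with an unadjusted p of 0.0515 and an edgeR adjusted p of 0.737 that ran from 0.389 to 0.995 over the other settings. It was 0.66 without treated replicate 3, so that library did not carry the value. Cenpf, a protein of the outer kinetochore, had 1.82, 2.06 and 3.10 CPM in treated and 2.41, 1.38 and 2.03 CPM in control libraries, and its log2 fold change of 0.25 ± 0.39 (SE) was 0.01 without treated replicate 3.

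Bub1 and Bub1b belong to the spindle checkpoint, which delays anaphase until every chromosome is attached. Bub1 had 4, 6 and 0 counts in treated and 5, 4 and 3 counts in control libraries. Bub1b, which encodes the checkpoint kinase BubR1, was well above detection in 5 of the 6 libraries, with 220, 329 and 71 counts in treated and 13, 280 and 110 counts in control libraries. In CPM Bub1b had 6.55, 11.5 and 5.65 in treated and 0.745, 10.8 and 7.43 in control libraries. Control replicate 1 alone was low, 7.58 times under the next lowest library, while the other control libraries lay within the range of the treated ones. For Bub1b the log2 fold change was 0.32 ± 0.81 (SE; edgeR adjusted p = 0.937) with all libraries and -0.21 without control replicate 1, and it was 1.74 with limma-voom and sample weights (adjusted p = 0.431). Without Bub1b, the summed level of the other mitotic genes was 14.5, 19.6 and 27.4 CPM in treated and 15.2, 14.4 and 17.9 CPM in control libraries.

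**Figure D4:**
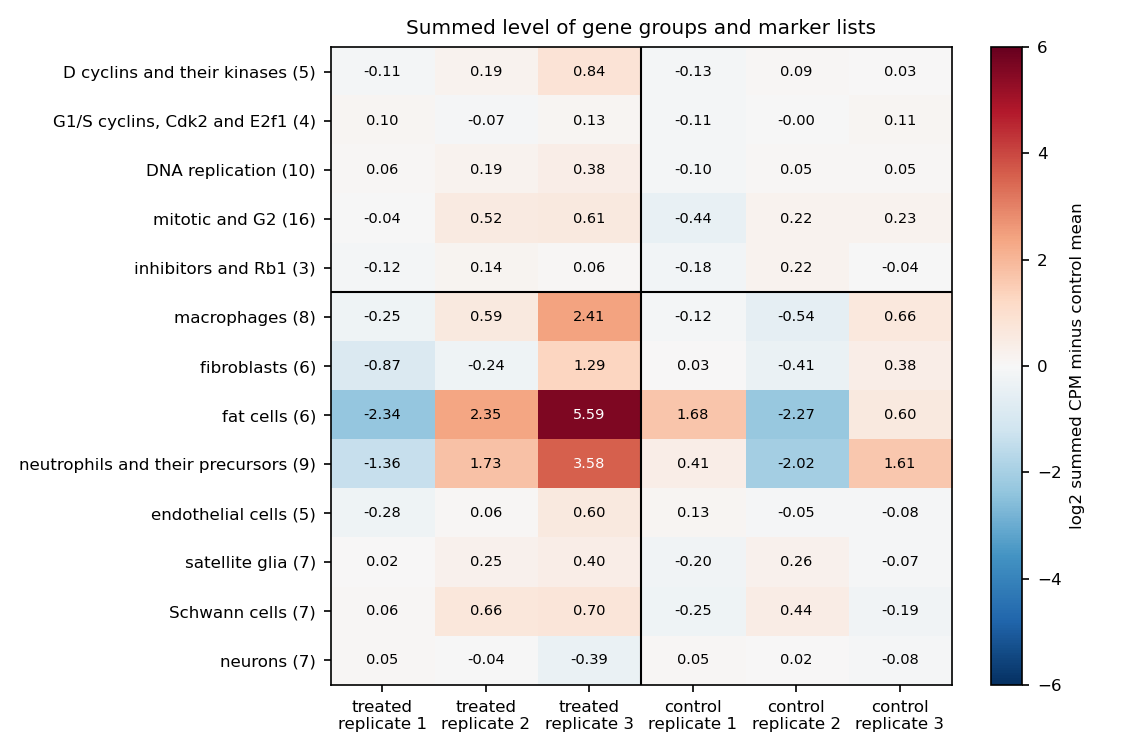
Summed CPM of each role group and of 8 cell type marker lists in each library, as log2 relative to the control mean, with the number of genes in parentheses. Treated replicate 3 is highest for 4 of the 5 role groups, at 0.84 for D cyclins, 0.61 for mitotic, 0.38 for replication and 0.13 for G1/S genes, and for 7 of the 8 marker lists, between 0.40 (satellite glia) and 5.59 (fat cells). Neuron markers are lowest there (-0.39). The lead is small for G1/S genes (0.11 in control replicate 3) and mitotic genes (0.52 in treated replicate 2). By single gene, treated replicate 3 is the highest library for 3 of the 11 mitotic genes tested, against 34.4% of all genes.

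The last 3 genes hold cells out of cycle. Among them Cdkn1b and Rb1 were even between the groups, while Cdkn2c varied most between libraries. Cdkn1b, the CDK inhibitor p27 of resting cells, had 72.0, 92.7 and 74.7 CPM in treated and 68.7, 96.8 and 74.1 CPM in control libraries. Its log2 fold change was -0.0021 ± 0.16 (SE; edgeR adjusted p = 0.997), and it had per kilobase 17.5 ± 2.47 CPM in treated and 17.6 ± 3.27 CPM in control libraries (SD, n = 3 each), the highest of the 38 genes. Rb1, the retinoblastoma protein, had 43.3, 45.2 and 51.5 CPM in treated and 41.3, 48.5 and 46.6 CPM in control libraries, at 0.04 ± 0.11 (SE; edgeR adjusted p = 0.943). Per kilobase Rb1 had 7.76 ± 0.717 CPM in treated and 7.56 ± 0.624 CPM in control libraries. The groups overlapped for both. Cdkn2c, the inhibitor p18 of Cdk4 and Cdk6, had 0.625, 1.46 and 5.09 CPM in treated and 1.66, 1.35 and 1.82 CPM in control libraries. Treated replicate 3 was the highest and treated replicate 1 the lowest of the 6 libraries. The log2 fold change of Cdkn2c was 0.53 ± 0.72 (SE; edgeR adjusted p = 0.869) and turned to -0.62 without treated replicate 3.

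The library that stood apart was the highest for many of the genes. Treated replicate 3 had the highest CPM for 16 of the 33 tested genes, or 48.5%, against 34.4% of all 16019 genes. It had the lowest for 5, or 15.2%, against 34.3% of all genes. Control replicate 1 was the lowest library for 15 of the 33, or 45.5%, against 14.1% of all genes. Treated replicate 1 was the lowest library for 7 of the 33, or 21.2%, against 11.5% of all genes. Its macrophage, fibroblast and fat cell marker sums were the lowest of the treated group. In control replicate 1 these sums were above those of control replicate 2, while its satellite glia and Schwann cell sums were the lowest of all libraries. The part of these cells was not tested.

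Other genes of the cell cycle, 112 in 4 lists by role, were examined in the same fit. Of these 107 were tested and 0 passed in edgeR, while 6 had an unadjusted p under 0.05, against 6.67% of all genes. DESeq2 called 1, against 0.567% of all genes. The log2 fold change was positive for 58 and negative for 49 of the 107. This is 54.2% positive, against 52.8% of all genes and 78.8% of the 33 genes above. The median log2 fold change was -0.06 over 27 other replication genes, 0.08 over 40 other mitotic genes, -0.0087 over 26 transcriptional and CDK regulators and 0.40 over 14 other inhibitors and checkpoint genes. The last was 0.09 without treated replicate 3. The gene that DESeq2 called was Cdkn1a, which encodes p21, a CDK inhibitor that p53 and stress induce. Cdkn1a had 25.8, 39.7 and 30.1 CPM in treated and 15.4, 19.6 and 15.5 CPM in control libraries, without overlap. For Cdkn1a the log2 fold change was 0.92 ± 0.19 (SE) at an edgeR adjusted p of 0.568, and 0.95 without treated replicate 3. Its adjusted p was 0.00995 with DESeq2, which rests on the same libraries. Prc1, which bundles microtubules in the late spindle, had 4.52, 7.32 and 7.16 CPM in treated and 2.06, 3.54 and 2.37 CPM in control libraries. Prc1 had a log2 fold change of 1.24 ± 0.32 (SE; edgeR adjusted p = 0.621). Myc, a transcription factor of growth and cell cycle entry, was even within groups, with 9.08, 8.36 and 9.39 CPM in treated and 5.56, 6.04 and 5.34 CPM in control libraries. The log2 fold change of Myc was 0.66 ± 0.17 (SE; edgeR adjusted p = 0.621).

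In the same lists, Bub3, a partner of Bub1 and Bub1b, had 62.9, 51.5 and 35.4 CPM in treated and 83.4, 75.5 and 76.8 CPM in control libraries. Its log2 fold change was -0.65 ± 0.19 (SE; edgeR adjusted p = 0.670), and -0.46 without treated replicate 3. Cdkn3, a phosphatase of CDKs, stood at 1.06 ± 0.44 (SE), and 0.74 without treated replicate 3. E2f2, a further E2F factor, stood at 0.45 ± 0.26 (SE), and 0.28 without treated replicate 3. Gins1 and Gins2 are subunits of the GINS complex, a part of the replicative helicase, and lay on opposite sides of 0. Gins2 was at 0.85 ± 0.42 and Gins1 at -0.76 ± 0.46 (SE). None of these passed.

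**Figure D5:**
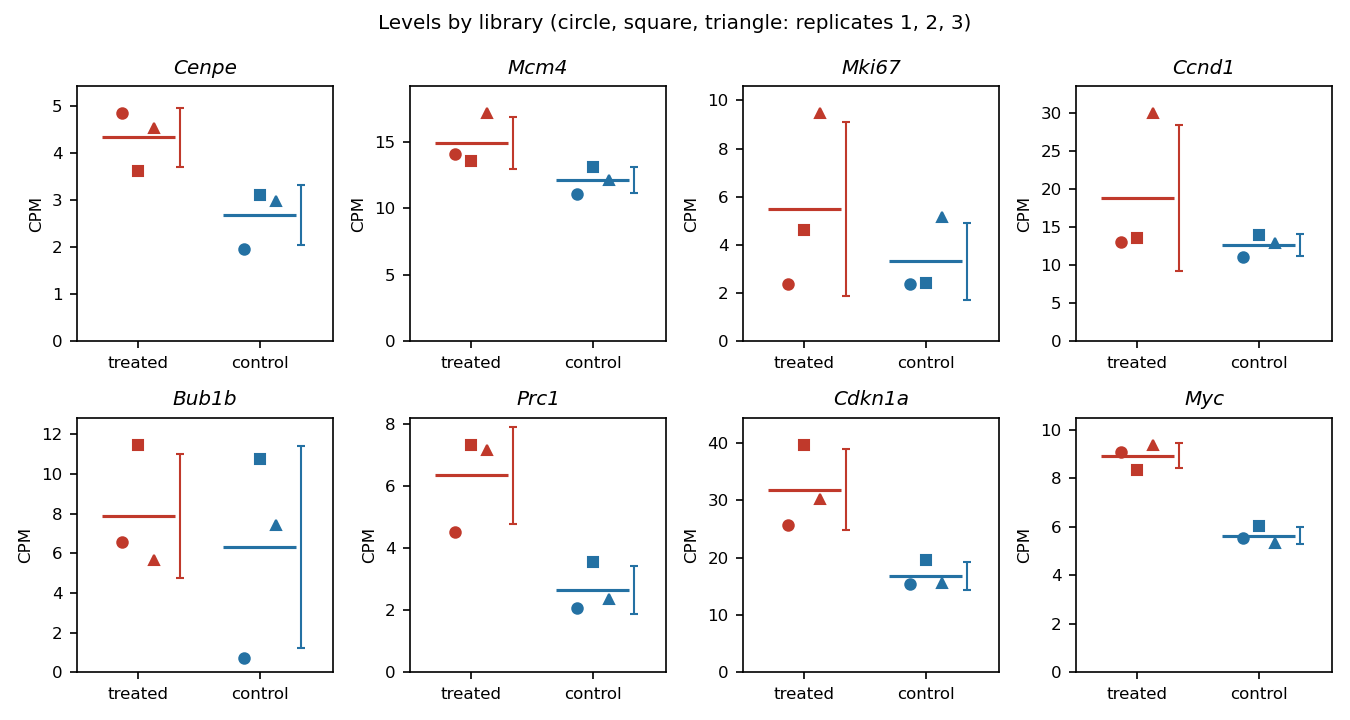
CPM by library for 5 of the 38 genes (Cenpe, Mcm4, Mki67, Ccnd1 and Bub1b) and 3 other cell cycle genes (Prc1, Cdkn1a and Myc), treated left of control, with the mean (line) and SD (bar) of 3 libraries. Groups do not overlap for Cenpe, Mcm4, Prc1, Cdkn1a and Myc. Treated replicate 3 (triangle) lifts Mki67 and Ccnd1, and control replicate 1 (circle) is low for Bub1b.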

How the data were processed

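Total RNA of 6 libraries was sequenced, from about 6 ng input with a low-input, strand-specific kit (100 bp reads), per the labels' protocols. The deposited values are raw exonic counts per gene, 1 file per library. The submitters' processing notes name bcl2fastq 2.20, STAR 2.7.7a, DESeq2, edgeR and build mm10; these name no counting program, annotation or strand setting. Between 46.6% and 52.3% of reads were listed as unique overlaps in the read totals. The gene counts of each library summed to slightly more than its unique overlaps. The 3 lines of read totals in each file were left out. Of 32719 gene IDs 32663 matched GENCODE M21 (GRCm38), the source of exon lengths.

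Treated was compared with control in edgeR 4.0.16 (R 4.3.3): filterByExpr with a minimum count of 10, TMM scaling, robust quasi-likelihood F test, Benjamini-Hochberg adjustment over 16019 genes, threshold 0.05. SE is the absolute log2 fold change over the root of F. Reported levels are CPM with SD over 3 libraries. The procedure was tested on simulated data with known changes. Genes were drawn independently there and no library stood apart as treated replicate 3 does, so the simulation does not give the power in these libraries. Alternatives were other scalings, filters, tests (DESeq2 1.42.0, limma-voom 3.58.1), thresholds, a replicate block and each library left out. Members and lists were chosen with earlier results of these data known. All 38 members are named, and of the 112 others the 2 with the smallest p per list. The Bub1b comparisons without that gene, and with all other genes, were chosen after its values were seen.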

Additional observations from a re-analysis of the deposited data

How the results depend on the processing

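Over 17 other settings 0 of the 38 genes passed an adjusted p of 0.05, and 0 passed 0.1; the lowest adjusted p was 0.389, for Cenpe. The median of the members ran from 0.10 to 0.35. Over all genes the count of calls, 0 in the main test, was 26 with no filter, 89 with DESeq2, 8 with limma-voom and sample weights, 0 to 9 with a library left out (7 if treated replicate 1 was left out, 9 if treated replicate 3 was) and 1068 at an unadjusted p under 0.05. Of the other cell cycle genes 1 was called with DESeq2 and 1 with no filter (Cdkn1a in both), 0 with any library left out, and 6 at an unadjusted p under 0.05. Members without overlap between groups numbered 3, against 14.7% of all genes. By library size alone they numbered 2, a setting in which the share over all genes was not computed. With a library left out they numbered 3 to 10, a count that cannot fall by construction. There were 10 without treated replicate 1 (30.3%, against 30.9% of all genes). Without control replicate 2 there were 6 (18.2%, against 27.3%), and 6 without control replicate 3 (18.2%, against 22.7%). The count stayed at 3 (9.09%) without treated replicate 2 (against 23.6%), without treated replicate 3 (23.6%) and without control replicate 1 (20.7%).

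With the replicate number as a block the count over all genes was 1, the sign turned for Ccne1 (-0.00030) and Cdkn1b (0.0049), and no member was called. The titles share numbers between groups. Nothing says that they mark a shared animal, litter or day, so the numbers were not taken as pairs. The deviations of same-numbered libraries correlated at 0.01, 0.56 and 0.49 for replicates 1, 2 and 3, against -0.50 to 0.25 between different numbers. Deviations were taken from the mean of each group, so they sum to 0 within a group. A positive correlation for 1 pair thus forces negative ones among others, and the 2 sets of values are not independent. Whether replicates 2 and 3 share a source of variation across groups was not tested.

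Of 540 log2 fold changes of members under other settings 63 had the opposite sign, none of them called, and 16 of 33 members kept their sign throughout. The cause was not tested. With limma-voom and sample weights the values were -0.16 for Ccnd2, -0.0588 for Ccne1, -0.12 for Ccne2, 0.0684 for E2f1, -0.0669 for Mcm7, 0.17 for Tyms, 0.0398 for Rrm2, -0.20 for Top2a, 0.33 for Ccna2, 0.49 for Plk1, -0.0164 for Aurka, 0.16 for Cdkn1b and -0.47 for Cdkn2c. With limma-voom they were -0.10 for Ccnd2, -0.0394 for Ccne1, 0.0125 for E2f1, 0.10 for Tyms, -0.24 for Cdk1, 0.0232 for Ccna2, -0.0333 for Aurka, 0.0040 for Cdkn1b and -0.31 for Cdkn2c. Ccne1, at 0.00077 in the main test, was -0.0097 with DESeq2, -0.0048 with DESeq2 size factors, -0.0142 with no filter, -0.0027 with small RNA and haemoglobin genes left out and -0.0117 with upper quartile scaling. Cdkn1b was 0.0050 with the 5 CPM filter and 0.0096 by library size alone, where Plk1 was 0.0139.

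With 1 library left out the sign depended on the library for 17 members, whose values ran from -0.28 to 0.34 for Ccnd2, from -0.0939 to 0.0653 for Ccne1, from -0.16 to 0.21 for Ccne2, from -0.17 to 0.11 for E2f1, from -0.16 to 0.18 for Mcm2, from -0.12 to 0.35 for Mcm7, from -0.27 to 0.21 for Tyms, from -0.34 to 0.24 for Rrm2, from -0.30 to 1.62 for Top2a, from -0.30 to 0.93 for Cdk1, from -0.29 to 0.12 for Ccna2, from -0.29 to 0.36 for Plk1, from -0.0627 to 0.12 for Aurka, from -0.21 to 0.96 for Bub1b, from -0.14 to 0.15 for Cdkn1b, from -0.62 to 0.98 for Cdkn2c, from -0.0389 to 0.0777 for Rb1. The other 16 members kept 1 sign with a library left out, but the value moved by over 1.5 times for 15 of them, all except Cenpe. Low counts limit the mitotic genes: 8 of the 16 had group means under 1 CPM in both groups.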

Other observations

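The drop of Bub1b in 1 library is uncommon in these data. Among 11817 genes with a mean of at least 5 CPM, 5 including Bub1b had a lowest library at least as far below the next lowest. For 2 of these the low library was treated replicate 3, for 2 it was control replicate 2 and for Bub1b it was control replicate 1.

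The cell cycle homology region of the mitotic members was also frequent in mitotic genes outside the 38, while CCAAT boxes were less frequent than in the members. A cell cycle homology region was found in 31 of 40 windows of 36 other mitotic genes and in 7 of 29 windows of 22 other replication genes, against 19.2% of all windows. CCAAT boxes stood in 25 of these 40 windows (62.5%) and in 13 of these 29 (44.8%), against 37.4% of all windows.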
